A study of Homo sapiens with 6 samples.

Results

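The genes that make nucleotides, one-carbon folates and polyamines were followed in HEK293T cells that over-expressed *USF1*. A list of 39 genes was drawn up by the metabolic step each enzyme carries out, and 36 of them had a probe set named for that gene alone among the 9586 named genes of the arrays. The study set cells given the *USF1* coding region in the vector pcDNA4/HisMax (USF1, 3 arrays) against cells given the vector alone (Empty vector, 3 arrays), both in HEK293T, a human embryonic kidney line that, per the study's methods, makes USF1 protein of its own. Total RNA was taken 48 hours after transient transfection, so transfected and untransfected cells of a culture were measured together, and fewer cells with a change cannot be told apart from a smaller change per cell. The purpose was to find genes that *USF1* regulates directly or indirectly.

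Purines are built stepwise on the sugar phosphate PRPP, first to IMP and from there to AMP or GMP, whereas the pyrimidine ring is made first and then joined to PRPP. Folates carry the one-carbon units that purine synthesis and the making of thymidylate use, and polyamines are made from ornithine and S-adenosylmethionine. Dividing cells need all of these routes, and many of the genes are known targets of MYC, which as a dimer with MAX binds the E-box letters CACGTG, the letters that USF1 also binds.

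Values were RMA expression values on the log2 scale, in which a difference of 1 is a doubling, and each gene was represented by its probe set with the highest mean over the 6 arrays. A change was called where limma gave an adjusted p-value under 0.05 over all 16569 probe sets. The sources used here do not say whether a group's arrays stand for separate transfections, so the spread that p-values measure may be only technical. Array medians lay between 5.88 and 5.96 in USF1 and between 5.96 and 6.0 in Empty vector cells, and the median difference of all named genes was -0.079. In Empty vector replicates 1 and 2 the actin 5' minus 3' value, a sign of RNA quality, was -1.34 and -1.04, against -0.68 to -0.49 in USF1 cells and -0.52 in Empty vector replicate 3. The same value for *GAPDH* was -0.582, -0.316 and -0.256 in Empty vector replicates 1, 2 and 3, and -0.345 to -0.322 in USF1 cells. By *GAPDH*, only Empty vector replicate 1 stood apart. What part RNA quality has in the differences below was not tested. Of 7 neurofilament and other markers of this line, 3 had a probe set, *NEFL*, *NEFM* and *VIM*. Their array mean lay between 9.51 and 9.62 in USF1 and between 9.36 and 9.57 in Empty vector cells. Of 18 markers of blood, liver, fat, endothelium or fibroblasts 0 had a probe set. Since markers of the line also lacked one, this does not identify the cells. Whether the single probe set of *USF1* itself can detect the plasmid's transcript was not examined, so it does not check the labels. The difference at that probe set was -0.071 (SE 0.19). The study reports over-expression of USF1 protein by western blot, and it checked array changes of selected genes by quantitative PCR.

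Over-expression of *USF1* was accompanied by small differences in these genes, and 1 of 36 passed the test. *GART*, which carries out several steps of purine ring assembly, was lower in USF1 cells at 79.4% of its Empty vector level. No member was called higher by limma, and 0 passed either form of the methods' t-test after adjustment. Over all named genes these forms called 0.0104% with unequal variances and 1.12% with equal variances, so a call of any member was unlikely there. At an unadjusted p-value under 0.05, 1 member was higher and 9 were lower, where 10.6% of all named genes were higher and 23.9% lower. Of all named genes, 14.1% were called, 5.18% higher and 8.89% lower, while the call of 1 member is 2.78% of the list. With arrays centred on their medians, 55.5% of the calls over all named genes were higher, and 49.8% after a further quantile normalization, against 36.8% with the deposited values. In USF1 cells 25 members lay below and 11 above their Empty vector mean, with a median difference of -0.11. The 25 lower means are 69.4% of the members, near the 63.4% of all named genes with a lower mean. The USF1 arrays lay wholly below the Empty vector arrays in 12 members, or 33.3%, and wholly above in 1, or 2.78%. Over all named genes the USF1 arrays lay wholly below in 27.5% and wholly above in 12.6%, so that 40.2% of genes had groups that did not overlap. The lower side is therefore near its background.

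The arrays limited how small a difference could be seen. The SE of a member's difference was between 0.082 and 0.19, with a median of 0.099. The 95% confidence intervals of all 36 members stayed within 1 log2 unit of 0, that is within a doubling or halving, and those of 25 members stayed within 0.5 log2 units. The lowest bound was -0.66 and the highest 0.71.

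**Figure D1:**
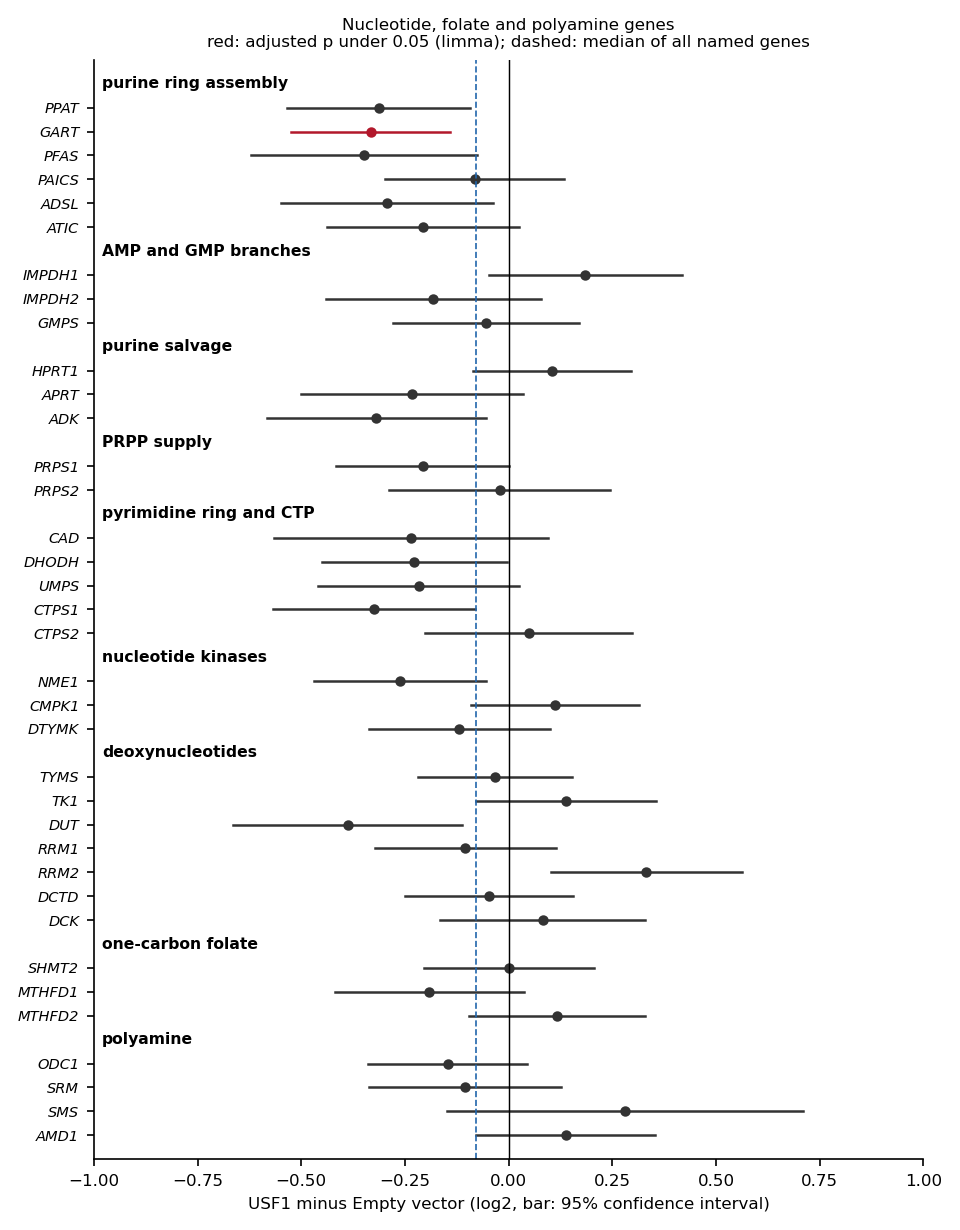
Difference between USF1 and Empty vector cells on the log2 scale (horizontal axis) with its 95% confidence interval (bar) for the 36 measured genes by metabolic step (vertical axis), in red where limma called the gene, and the median of all named genes as a dashed line at -0.079. *GART* is the only red point, and all 6 genes of purine ring assembly lie left of 0.

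In the assembly of the purine ring all 6 measured genes had lower means in USF1 cells, where 63.4% of all named genes did, and *GART* passed the test. In 4 of the 6 every USF1 array lay below every Empty vector array, where 27.5% of all named genes did, and with so few genes nothing particular to this step was shown. Against Empty vector replicate 3 alone, the difference of *PPAT* was -0.21 and that of *PFAS* -0.13, both smaller by over 1.5 times than with all arrays. In that fit *GART* was at -0.31, *ADSL* at -0.30 and *ATIC* at -0.18. The difference of *PAICS* was larger there than with all arrays, at -0.17 against -0.082. *PPAT* makes the first committed step from PRPP. It had log2 values of 7.28, 7.47 and 7.32 in USF1 cells and 7.67, 7.77 and 7.56 in Empty vector cells, or a log2 difference of -0.31 (SE 0.096, limma adjusted p-value = 0.0667). Every USF1 array lay below every Empty vector array, though the test was not passed at this probe set.

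*GART* joins several steps of the route in a single protein. Its values were 7.35, 7.47 and 7.41 in USF1 cells and 7.71, 7.81 and 7.72 in Empty vector cells, or a log2 difference of -0.33 (SE 0.084, limma adjusted p-value = 0.0383). The groups were further apart than the arrays within either group, whose SD was 0.063 in USF1 and 0.055 in Empty vector cells. The call was lost without any 1 of 4 arrays, while the difference stayed between -0.36 and -0.30. Limma adjusted p-values were 0.137 and 0.134 without USF1 replicate 1 or 3, and 0.121 and 0.0731 without Empty vector replicate 2 or 3. In that order, these fits called 3.36%, 2.67%, 4.03% and 7.83% of all named genes, against 14.1% with all arrays. The *GART* call was also lost after centring each array on its median, at -0.26 (limma adjusted p-value = 0.0778), where 13.2% of all named genes were called. Against Empty vector replicate 3 alone, which has no low actin value, the difference was -0.31.

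The values of *PFAS*, the amidotransferase between the *GART* steps, were 7.28, 7.14 and 7.30 in USF1 cells and 7.80, 7.60 and 7.37 in Empty vector cells, or a log2 difference of -0.35 (SE 0.12, limma adjusted p-value = 0.0882). Most of the spread was among Empty vector arrays, and replicate 3 of these lay close to the USF1 arrays. *ADSL*, which also acts in the branch to AMP, had 8.39, 8.02 and 8.32 in USF1 cells and 8.59, 8.47 and 8.55 in Empty vector cells (-0.29, SE 0.11). Its groups did not overlap, but USF1 replicate 2 lay far below the other USF1 arrays. *ATIC*, which completes IMP, differed by -0.21 (SE 0.10) with overlapping groups, and *PAICS*, which catalyses the steps before *ADSL*, by -0.082 (SE 0.095) with overlapping groups.

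All probe sets of these genes were compared, since a gene with several can differ between them. *GART* had 5, all lower on average in USF1 cells, and 2 were called. Over all probe sets of the arrays 11.9% were called, 4.32% higher and 7.6% lower, and of the 54 probe sets of the members 3 were called lower and 0 higher by limma. The second called probe set had 5.41, 5.76 and 5.64 in USF1 cells and 6.13, 6.03 and 5.95 in Empty vector cells, or a log2 difference of -0.43 (SE 0.11, limma adjusted p-value = 0.0409). The other probe sets of *GART* had differences of -0.32, -0.25 and -0.20, and in the last of them Empty vector arrays were spread between 5.62 and 6.27. The dimmer probe set of *PPAT* was called at -0.32 (SE 0.087, limma adjusted p-value = 0.0482), with 6.76, 6.68 and 6.63 in USF1 cells and 6.93, 7.08 and 7.02 in Empty vector cells. That call was lost without any 1 of 5 arrays and held only without Empty vector replicate 1, where the limma adjusted p-value was 0.0375, and it ranged up to 0.177 without USF1 replicate 3. Over all named genes, 13.7% were called without Empty vector replicate 1, and between 2.67% and 15.4% in the other 5 fits. The second called probe set of *GART* was called only without USF1 replicate 2 among the 6 fits that leave out an array, and neither of these probe sets was called after centring. The second probe set of *PAICS* had the opposite sign to the first, at 0.11 (SE 0.13), and that of *ADSL* was at -0.11 (SE 0.12).

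**Figure D2:**
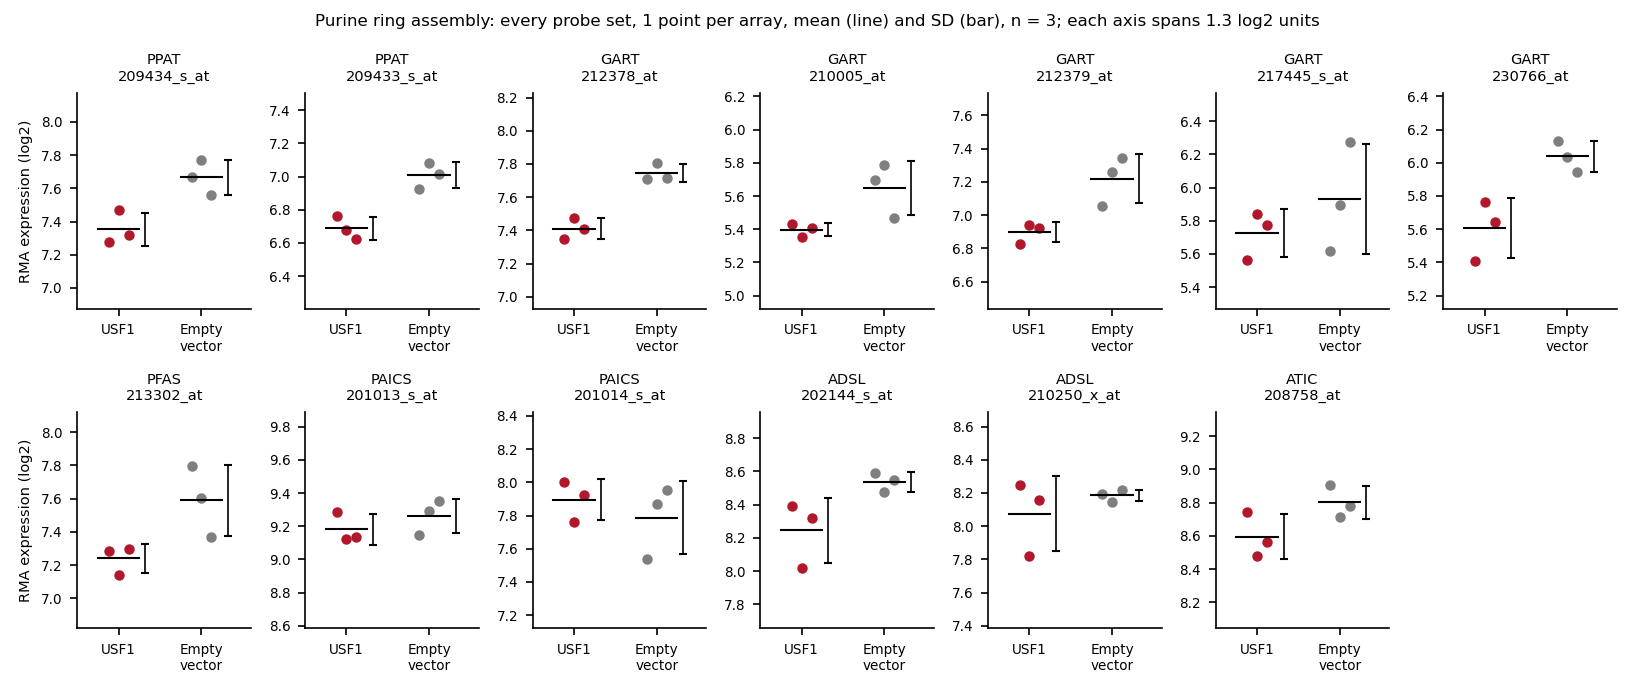
Log2 RMA values (vertical axis) at every probe set of the 6 purine ring genes in USF1 cells (red, left) and Empty vector cells (grey, right), 1 point per array, with the mean (line) and SD (bar) of 3 arrays. The groups are apart at 4 of 5 *GART* probe sets and both of *PPAT*, and overlap at both of *PAICS*.

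*PPAT* and *PAICS* are transcribed in opposite directions on chromosome 4. *PAICS* has several annotated starts, 1 of them within *PPAT*. Between the start of *PPAT* and the *PAICS* start nearest to it lies a stretch of 136 bases. This stretch is shown because enzymes of the same route, though not of successive steps, share it. It reads as follows on the strand of *PAICS*, 5' to 3', from RefSeq's GRCh38.p14.
PPAT to PAICS (chr4:56435616-56435751, plus strand): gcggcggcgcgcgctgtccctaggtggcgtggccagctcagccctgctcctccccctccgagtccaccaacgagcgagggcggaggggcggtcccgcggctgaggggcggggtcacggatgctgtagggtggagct
The stretch is 75% G or C and holds no E-box and no CCAAT letters, which are bound by NF-Y. Although they share it, the means of *PPAT* and *PAICS* did not differ between the groups by the same amount. The log2 ratio of *PPAT* over *PAICS* averaged -1.83 ± 0.18 in the USF1 arrays and -1.60 ± 0.17 in the Empty vector arrays (SD, n = 3 each), a difference of -0.23 (exact permutation test, 2-sided, p-value = 0.2, where 0.1 is the smallest that 3 against 3 arrays allow). A difference between these genes was thus not shown.

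The sequence before the start of *GART* is shown as that of the called gene, in the direction of transcription, with CCAAT or its reverse complement ATTGG in capitals.
GART (chr21:33542893-33543042, minus strand): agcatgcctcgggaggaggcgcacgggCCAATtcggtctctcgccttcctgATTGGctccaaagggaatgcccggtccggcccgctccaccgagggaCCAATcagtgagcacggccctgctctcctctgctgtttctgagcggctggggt
It holds these letters 3 times and no E-box. CCAAT or ATTGG stood in a window of 45.5% of the measured members with a window and of 44.3% of all named genes with one, so its presence does not set *GART* apart.

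From IMP the route divides, and no enzyme of the branches passed the test. *IMPDH1* and *IMPDH2*, the isozymes of the rate-limiting step toward GMP, had differences of opposite sign, at 0.19 (SE 0.10) and -0.18 (SE 0.11), and *GMPS*, which makes GMP, was at -0.056 (SE 0.098). Values of *IMPDH1* were 6.26, 6.29 and 6.23 in USF1 cells and 6.25, 6.06 and 5.92 in Empty vector cells. Values of *IMPDH2* were 8.75, 8.45 and 8.64 in USF1 cells and 8.97, 8.71 and 8.72 in Empty vector cells. Both pairs of groups overlapped, by 1 Empty vector array for *IMPDH1* and by 1 USF1 array for *IMPDH2*. Within an array the ratio of *IMPDH1* over *IMPDH2* separated the groups, at -2.36 ± 0.17 in the USF1 arrays and -2.72 ± 0.081 in the Empty vector arrays (SD, n = 3 each), with an exact permutation p-value of 0.1, 2-sided, the smallest possible. *ADSS2*, which makes the first step toward AMP, is not analysed here.

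The salvage enzymes return bases and nucleosides to nucleotides, and here too none passed. *HPRT1*, which recycles hypoxanthine and guanine and which the study used as a reference gene in PCR, had 9.71, 9.56 and 9.65 in USF1 cells and 9.54, 9.56 and 9.50 in Empty vector cells, or a log2 difference of 0.11 (SE 0.083, 95% confidence interval -0.085 to 0.30). The groups overlapped at USF1 replicate 2. *ADK*, adenosine kinase, was at -0.32 (SE 0.12, limma adjusted p-value = 0.103), with 6.43, 6.11 and 6.31 in USF1 cells and 6.74, 6.45 and 6.61 in Empty vector cells. Its highest USF1 array lay just below its lowest Empty vector array. *APRT*, which recycles adenine, differed by -0.23 (SE 0.12).

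PRPP itself comes from the synthetases *PRPS1* and *PRPS2*. *PRPS1* had 8.92, 8.82 and 8.75 in USF1 cells and 8.95, 9.13 and 9.04 in Empty vector cells (-0.21, SE 0.092, limma adjusted p-value = 0.162), and the groups were next to each other without overlap. *PRPS2* had a difference of -0.021 (SE 0.12). The ratio of *PRPS1* over *PRPS2* had an exact permutation p-value of 0.2, 2-sided, and did not show that the isozymes differed.

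Among the genes of pyrimidine synthesis, 4 of 5 had lower means in USF1 cells, where 63.4% of all named genes did, and none passed. Against Empty vector replicate 3 alone, without the arrays of low actin value, *CAD* turned to 0.055, and *CTPS1* and *UMPS* were at -0.18 and -0.11. *CAD*, whose protein carries the first steps of the ring, had 6.42, 6.06 and 6.19 in USF1 cells and 6.62, 6.58 and 6.17 in Empty vector cells, or a log2 difference of -0.24 (SE 0.15). Empty vector replicate 3 lay among the USF1 arrays. The mitochondrial enzyme *DHODH* was at -0.23 (SE 0.098), without overlap, and *UMPS*, which makes UMP, at -0.22 (SE 0.11), with overlap. *CTPS1*, a CTP synthetase that dividing lymphocytes need, had 7.82, 7.91 and 7.76 in USF1 cells and 8.34, 8.11 and 8.01 in Empty vector cells (-0.32, SE 0.11, limma adjusted p-value = 0.0799). Its isozyme *CTPS2* was at 0.049 (SE 0.11). The dimmer probe set of *CTPS2* was at 0.17 (SE 0.096, limma adjusted p-value = 0.259), with all USF1 arrays above the Empty vector arrays. The log2 ratio of *CTPS1* over *CTPS2* was 2.15 ± 0.16 in the USF1 arrays and 2.52 ± 0.020 in the Empty vector arrays (SD, n = 3 each), groups that did not overlap, with an exact permutation p-value of 0.1, 2-sided. In all, 5 such ratios were compared and each had an adjusted p-value of at least 0.167.

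Kinases then carry nucleotides to the diphosphate and triphosphate. *NME1*, a nucleoside diphosphate kinase also known as a suppressor of metastasis, had 10.15, 10.22 and 10.17 in USF1 cells and 10.57, 10.40 and 10.36 in Empty vector cells, or a log2 difference of -0.26 (SE 0.090, limma adjusted p-value = 0.0899). The USF1 arrays were tightly grouped below all Empty vector arrays. *CMPK1*, a kinase of UMP and CMP, was at 0.11 (SE 0.089) and *DTYMK*, thymidylate kinase, at -0.12 (SE 0.096), both with overlap.

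The enzymes of deoxynucleotide supply included the member with the highest and the one with the lowest difference. *RRM2* and *RRM1* are the small and the large subunit of ribonucleotide reductase, which makes deoxynucleotides from ribonucleotides. *RRM2* had 9.72, 9.69 and 9.69 in USF1 cells and 9.25, 9.55 and 9.30 in Empty vector cells, or a log2 difference of 0.33 (SE 0.10, limma adjusted p-value = 0.0652), or 126% of its Empty vector level. At the probe set that represents each gene, *RRM2* was the single member whose USF1 arrays all lay above the Empty vector arrays. Its second probe set gave 9.03, 8.88 and 8.98 in USF1 cells and 8.50, 8.67 and 8.79 in Empty vector cells, at 0.31 (SE 0.10, limma adjusted p-value = 0.0771), again without overlap. After centring each array *RRM2* passed, at 0.40 (SE 0.098, limma adjusted p-value = 0.0368).

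*RRM1* was at -0.10 (SE 0.096). The log2 ratio of *RRM2* over *RRM1* was 1.00 ± 0.13 in the USF1 arrays and 0.57 ± 0.19 in the Empty vector arrays (SD, n = 3 each), without overlap and with an exact permutation p-value of 0.1, 2-sided. *DUT*, which removes dUTP, had 5.71, 5.44 and 5.28 in USF1 cells and 5.86, 5.96 and 5.79 in Empty vector cells, or a log2 difference of -0.39 (SE 0.12, limma adjusted p-value = 0.069). USF1 arrays were more spread than Empty vector arrays, and their highest value was close to the lowest Empty vector value.

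The remaining deoxynucleotide genes overlapped between groups and lay near 0. *TYMS*, thymidylate synthase, was at -0.033 (SE 0.082, 95% confidence interval -0.22 to 0.15), *TK1*, the cytosolic thymidine kinase, at 0.14 (SE 0.095), *DCK*, deoxycytidine kinase, at 0.082 (SE 0.11) and *DCTD*, which deaminates dCMP, at -0.047 (SE 0.089). Genes of S phase and proliferation were measured beside them, as several members are made most in S phase. Of 17 such genes, 0 were called higher by limma and *E2F2*, an activator of S phase genes, was lower (-0.67, SE 0.16, limma adjusted p-value = 0.0299). That is 5.88% of this list, where 14.1% of all named genes were called. At an unadjusted limma p-value under 0.05, 2 were higher and 5 lower, where 10.6% of all named genes were higher and 23.9% lower. That call of *E2F2* was lost without USF1 replicate 1, USF1 replicate 3 or Empty vector replicate 2, with differences between -0.79 and -0.52 over the 6 fits that leave out an array. The fits that lost it called 3.36%, 2.67% and 4.03% of all named genes, against 14.1% with all arrays.

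**Figure D3:**
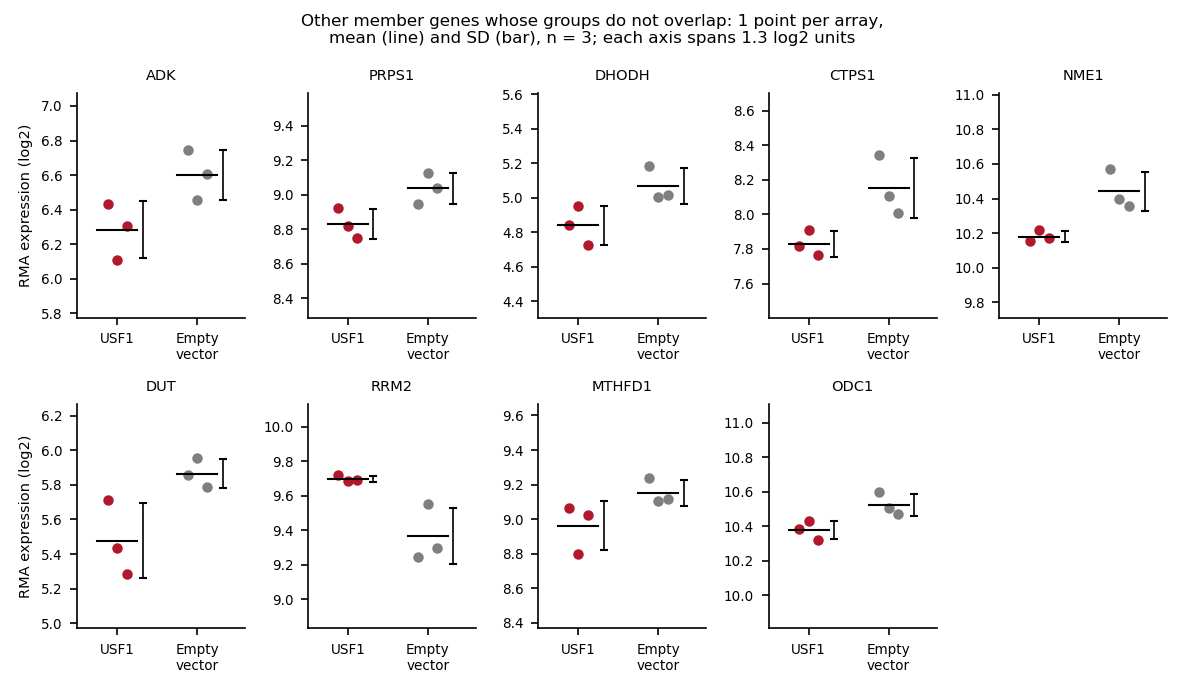
Log2 RMA values (vertical axis) of the 9 members outside purine ring assembly whose groups do not overlap, in USF1 cells (red, left) and Empty vector cells (grey, right), 1 point per array, with the mean (line) and SD (bar) of 3 arrays. *RRM2* is higher in USF1 cells, the other 8 are lower, and none of them was called by limma.

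Of the one-carbon genes, 3 had a probe set of their own and none passed. *SHMT2*, the mitochondrial enzyme that takes a carbon unit from serine, was at 0.0010 (SE 0.090), with 9.50, 9.57 and 9.36 in USF1 cells and 9.51, 9.42 and 9.50 in Empty vector cells. *MTHFD2*, the next mitochondrial enzyme, was at 0.12 (SE 0.093). *MTHFD1*, which interconverts folates in the cytosol, had 9.06, 8.80 and 9.02 in USF1 cells and 9.24, 9.10 and 9.12 in Empty vector cells, or a log2 difference of -0.19 (SE 0.10, limma adjusted p-value = 0.231) without overlap. The probe sets annotated to *SHMT1* carry *MIR6778* as well, and those annotated to *MTHFD1L* carry further loci, so they were not counted for these genes. They had differences of 0.037 and -0.059 for probe sets annotated to *SHMT1* and of 0.065 and 0.11 for those annotated to *MTHFD1L*, and none was called.

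None of the 4 polyamine genes passed. *ODC1*, ornithine decarboxylase, the first and most regulated step, had 10.38, 10.43 and 10.32 in USF1 cells and 10.60, 10.51 and 10.47 in Empty vector cells, or a log2 difference of -0.15 (SE 0.084, limma adjusted p-value = 0.27). The groups did not overlap, and the USF1 level was 90.3% of the Empty vector level. *AMD1*, which supplies the aminopropyl donor, was at 0.14 (SE 0.095) and the spermidine synthase *SRM* at -0.10 (SE 0.10). Spermine synthase, *SMS*, had the largest SE of all members. Its values were 7.10, 6.48 and 7.06 in USF1 cells and 6.90, 6.45 and 6.46 in Empty vector cells (0.28, SE 0.19), with USF1 replicate 2 and Empty vector replicate 1 each apart from its own group.

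The E-box letters were more frequent near the starts of these genes than over all genes. None of the 9 members that hold them was called at the probe set that represents the gene, where 14.1% of all named genes were called. RefSeq promoter windows of GRCh38.p14, from 250 bases before to 50 after each annotated start, were available for 33 of the 36 measured members, and both strands were searched, which for the palindrome CACGTG are the same. At least 1 window of 9 members held it, or 27.3%, against 13.4% of 8067 named genes with a window. By window the share was 18.4% for members and 7.26% of all 35116 windows. The sites are shown because USF1 and MYC with MAX bind these letters, with 10 bases on either side, CACGTG in capitals, in the direction of transcription.
PPAT, shared with PAICS (chr4:56435782-56435807, minus strand): cggagatttcCACGTGcagcaaatac
ATIC, before the start (chr2:215312003-215312028, plus strand): gccggcgggcCACGTGataagcccgg
ATIC, after the start (chr2:215312078-215312103, plus strand): cctacctgcgCACGTGgtgccgccgc
DHODH (chr16:72008575-72008600, plus strand): cgctactgcgCACGTGcacccaacca
NME1 (chr17:51153583-51153608, plus strand): tgctgcgaacCACGTGggtcccgggc
DCK (chr4:70993523-70993548, plus strand): ccccggccttCACGTGacctggcgtg
MTHFD1 (chr14:64388328-64388353, plus strand): agtccctaagCACGTGggttgggttg
ODC1, before the start (chr2:10448026-10448051, minus strand): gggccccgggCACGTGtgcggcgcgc
ODC1, after the start (chr2:10447992-10448017, minus strand): cctgcggagaCACGTGgtcgccgagc
SRM (chr1:11060202-11060227, minus strand): ggccgggcccCACGTGgcccctggag
The first base of the shared site lies 182 bases before the start of *PPAT* and 40 bases after that same start of *PAICS*. The pair of sites in *ATIC* begin 46 bases before and 29 bases after its start, and those of *ODC1* 29 bases before and 5 after.

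Of these 9 members, 8 had lower means in USF1 cells, where 69.4% of all measured members and 63.4% of all named genes did. *PPAT* and *PAICS*, both among the 8, hold the same site. *DCK* alone was higher at 0.082, and none of the 9 was called at the probe set that represents the gene. The dimmer probe set of *PPAT* was called lower. The median difference of the 9 members was -0.19, and that of the 24 members with a window but no E-box was -0.051. Over all named genes the order was the other way, with a median of -0.046 in 1080 genes that held an E-box and of -0.088 in 6987 that did not. Among genes with an E-box 7.78% were called higher and 6.94% lower, and among genes without it 4.69% were higher and 9.27% lower. These are counts of letters in a window and not of bound sites, genes with several annotated starts have more windows to hold them, and no test was made. Other letters searched were TTTCCCGC and TTTGGCGC, which E2F factors bind, on both strands. TTTCCCGC stood in windows of *PRPS2*, *TYMS* and *DUT*, or 9.09% of members with a window against 3.69% of all named genes with one. TTTGGCGC stood in windows of *GART*, *DUT* and *DCK*, or 9.09% against 1.45%.

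**Figure D4:**
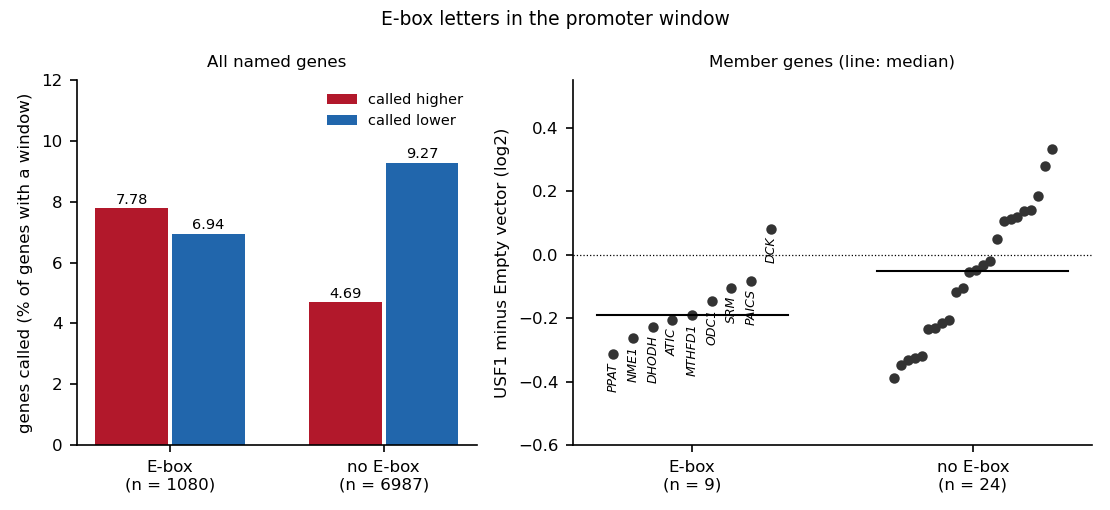
Left, percent of named genes called higher (red) or lower (blue) by limma among those with (n = 1080) and without (n = 6987) E-box letters in a promoter window. Right, difference between USF1 and Empty vector cells (log2, vertical axis) of the 9 members with and the 24 without these letters, 1 point per gene, with the median as a line at -0.19 and -0.051.

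Genes beside these routes, in salvage, breakdown and polyamine turnover, included single genes with larger differences than any member, at shares of calls near the background. Of 27 measured genes of nucleotide salvage and breakdown, 3 rose and 2 fell, or 18.5%, near the 14.1% of all named genes called. *AK4*, a mitochondrial adenylate kinase, had 7.56, 7.54 and 7.47 in USF1 cells and 6.88, 6.91 and 6.60 in Empty vector cells, or a log2 difference of 0.73 (SE 0.10, limma adjusted p-value = 0.00688). The phosphorylases of pyrimidine nucleosides rose as well. Thymidine phosphorylase, *TYMP*, rose by 0.72 (SE 0.14) and uridine phosphorylase, *UPP1*, by 0.59 (SE 0.12). *TYMP* was dim, with 5.13, 4.81 and 4.73 in USF1 cells and 4.27, 3.95 and 4.31 in Empty vector cells. Its mean lay at percentile 15.7 of all probe sets. The nucleotidase *NT5C2*, which prefers IMP and GMP, fell by 0.51 (SE 0.084), with 7.28, 7.31 and 7.38 in USF1 cells and 7.87, 7.87 and 7.76 in Empty vector cells, and the mitochondrial thymidine kinase *TK2* fell by 0.42 (SE 0.10).

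Of 18 measured genes of polyamine turnover, 2 rose and 1 fell, or 16.7%, again near 14.1%. *ARG2*, a mitochondrial arginase that makes ornithine, had 7.69, 7.62 and 7.72 in USF1 cells and 7.18, 6.96 and 6.95 in Empty vector cells, or a log2 difference of 0.64 (SE 0.095, limma adjusted p-value = 0.00743). *OAT*, ornithine aminotransferase, rose by 0.32 (SE 0.082). *EIF5A2*, a translation factor that carries hypusine, which is made from spermidine, fell by 0.44 (SE 0.12). *EIF5A2* was dim, with a mean at percentile 17.8 of all probe sets. In the wider folate, serine and methionine list, 0 of 19 measured genes were called by limma, where 14.1% of all named genes were. At an unadjusted limma p-value under 0.05, 2 were higher and 1 lower, where 10.6% of all named genes were higher and 23.9% lower. Among factors known to act on these genes, *MAX* rose by 0.35 (SE 0.086, limma adjusted p-value = 0.0367), while *MYC* was at -0.22 (SE 0.15) with means of 9.66 ± 0.30 in USF1 cells and 9.88 ± 0.099 in Empty vector cells (SD, n = 3 each). The groups of *MYC* overlapped, and USF1 replicate 3 lay below all other arrays.

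*AK4* and *ARG2* were called without each of the 6 arrays in turn. Against Empty vector replicate 3 alone, which leaves 1 array in that group, only differences are given, and these 2 genes were at 0.93 and 0.73. The other 8 called genes kept their direction there. *UPP1*, *TYMP*, *OAT* and *MAX* were at 0.52, 0.58, 0.36 and 0.42, and *NT5C2*, *TK2*, *EIF5A2* and *E2F2* at -0.44, -0.46, -0.47 and -0.45. *NT5C2* lost its call without USF1 replicate 1. *TYMP* and *UPP1* lost theirs without USF1 replicate 1, USF1 replicate 3 or Empty vector replicate 2, and *TK2* without these or Empty vector replicate 3. *OAT* and *MAX* kept a call only without Empty vector replicate 1, and *EIF5A2* only without USF1 replicate 2. These fits differed in how many calls they made over all named genes, from 2.67% without USF1 replicate 3 to 15.4% without USF1 replicate 2. After centring each array, *TK2* (limma adjusted p-value = 0.0648) and *EIF5A2* (limma adjusted p-value = 0.0611) were no longer called.

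**Figure D5:**
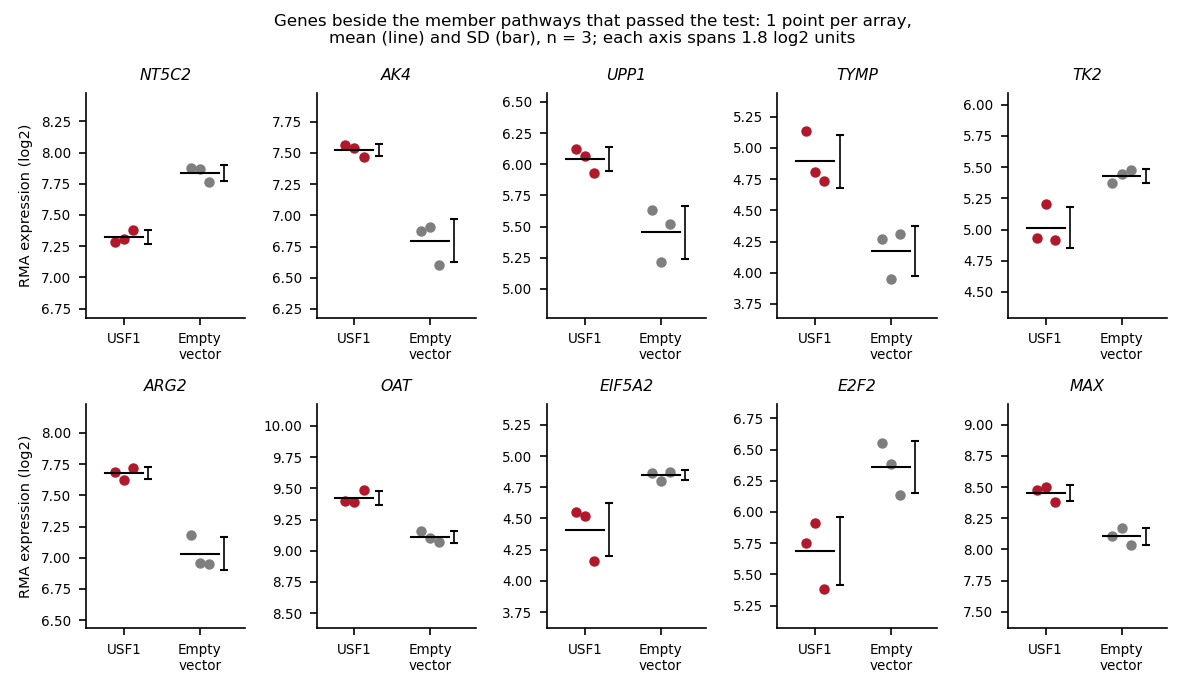
Log2 RMA values (vertical axis) of the 10 called genes of the lists beside the members, in USF1 cells (red, left) and Empty vector cells (grey, right), 1 point per array, with the mean (line) and SD (bar) of 3 arrays. *AK4*, *UPP1*, *TYMP*, *ARG2*, *OAT* and *MAX* are higher in USF1 cells and *NT5C2*, *TK2*, *EIF5A2* and *E2F2* lower, and in none do the groups overlap.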

How the data were processed

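The deposited tables hold log2 RMA values of 6 Affymetrix arrays, assigned to groups by their titles. The authors imported the arrays in R 2.8.0 with justRMA, which subtracts background and quantile normalizes, masked mis-targeted and nonspecific probes, dropped probe sets that kept too few probes or were called absent on most arrays, and adjusted with ComBat for batches that the sources used here do not name. Quantile normalization sets array distributions alike, and the batch correction can narrow the spread on which p-values rest, which was not tested.

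All 16569 probe sets were fitted with lmFit and eBayes of limma 3.58.1 in R 4.3.3, USF1 minus Empty vector, without covariates, with a prior of 4.53 degrees of freedom and adjustment by Benjamini and Hochberg. The procedure was tested on simulated data. It called 50 of 100 changes of 0.5 log2 units and 99 of 100 changes of 1 in the right direction, with 10 false calls. Member differences, between -0.39 and 0.33, were smaller than the changes simulated. Names came from the platform annotation, updated through entrez identifiers (15099 probe sets with 1 gene, of which 15098 were found in the RefSeq table of GRCh38.p14, 570 with several, 900 with none). Members, lists and tests were chosen with earlier results of these data known. Every measured member is named. From the other lists the called genes with the smallest adjusted p-values are named, up to 4 a list, and *TK2* was added to complete a count, as were *MYC* and *USF1*. Ratios within an array were compared for 5 pairs of genes with exact permutation tests. Alternatives were other tests, priors, weights, scalings, filters, thresholds and probe set choices, the replicate number as a block, and fits without each array in turn. Leaving out Empty vector replicates 1 and 2 together was chosen after seeing the data.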

Additional observations from a re-analysis of the deposited data

How the results depend on the processing

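With 1 member lower and 0 higher in the test as reported, the count depended on the processing. It was 0 lower after either form of the methods' t-test with adjustment, after centring arrays and after a further quantile normalization. By the t-test 0.0104% of all named genes were lower with unequal variances and 0.469% with equal variances. The share was 5.89% after centring and 6.85% after the further quantile normalization. The count was 3 lower and 1 higher with an intensity trend or with array weights, though the genes differed. With the trend *PPAT*, *GART* and *NME1* were lower and *RRM2* higher. With array weights *PPAT*, *GART* and *CTPS1* were lower and *SMS* higher. The count was 4 lower and 1 higher with the mean over all probe sets, and 2 lower with the probe set of smallest p-value. Over all named genes, 11% were lower and 5.6% higher with the trend, and 15.9% lower and 8.76% higher with array weights. With the mean over all probe sets 13.7% were lower and 6.96% higher, and for the smallest p-value no such share was computed. At an adjusted p-value under 0.1 there were 6 lower and 1 higher, where 17.4% of all named genes were lower and 8.10% higher. After centring, 1 member was higher, *RRM2*, where 7.34% of all named genes were higher. Leaving out single arrays gave 0 to 1 lower, where between 1% and 10.7% of all named genes were lower. At the methods' own threshold without adjustment, the t-test with unequal variances called 5 members lower and 0 higher, or 13.9%, against 24.1% of all named genes. No called member reversed. *GART* had limma or t-test adjusted p-values between 0.0125 and 0.137 over these settings, apart from the fit without Empty vector replicates 1 and 2 together. Leaving aside the removal of 2 arrays, the sign of an uncalled difference turned in 20 of 504 fits of a member, and 29 members kept theirs in each. Without Empty vector replicates 1 and 2 the sign turned in 6 of 36 members (*CAD*, *DCTD*, *PRPS2*, *SHMT2*, *SRM* and *TYMS*), and 27 kept theirs in every fit. With the replicate number as a block, 3 members were lower (*PPAT*, *GART* and *ADK*) and 19.9% of all named genes were called, against 14.1%. Arrays of the same number had correlations of deviations of 0.0958, 0.246 and 0.129. Each array correlated best with its own number, which is a hint of pairing, but the numbers were not taken as pairs because 1 correlation was under 0.1 and no label ties the numbers to a shared batch. The cause of these changes was not tested. The number of arrays limits the precision.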

Other observations

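*FOLR1*, the folate receptor alpha, stood apart in a single array. Its log2 value was 9.48, 9.20 and 9.32 in USF1 cells and 9.17 and 9.19 in Empty vector replicates 2 and 3, but 7.20 in Empty vector replicate 1, so that the difference between the groups (0.82, SE 0.46) rests on that array. It was named after its values were seen.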
